A study of Mus musculus with 89 samples.

Results

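The cytosolic ribosomal protein genes were taken by name: every target of the panel whose symbol starts with Rpl or Rps and a digit, or with Rplp and a digit, leaving out the Rps6k kinases and names ending in -ps. This gave 83 of 19962 targets, of which 40 encode large-subunit proteins, 30 small-subunit proteins and 3 the proteins of the ribosomal stalk (Rplp0, Rplp1, Rplp2). A further 8 are paralogs that carry the name of a parent gene (Rpl3l, Rpl7l1, Rpl10l, Rpl22l1, Rpl32l, Rpl36al, Rpl39l, Rps27l). The last 2, Rps19bp1 and Rps23rg1, match the name rule but do not encode a ribosomal protein. The rule read no measured value.

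The data are 89 tissue segments of mouse tumours profiled with the GeoMx mouse Whole Transcriptome Atlas, in which probes bound to RNA in a frozen section release counted tags from an outlined area. The areas were chosen on stained images by morphology, and all are labelled neutrophil. The deposited annotation places them in 7 classes on 3 slides, 1 slide per stage. The naive slide, annotated as before treatment, held 15 segments in stroma, 13 at the interface and 14 within the tumour. The acute and relapse slides are both annotated as after treatment; the acute slide held 9 stroma and 2 interface segments, and the relapse slide 14 stroma and 22 interface segments. The scan name of the naive slide carries the words UP HRass and that of the relapse slide the word DMBA. Stage, slide and treatment therefore cannot be told apart, and whether the tumour model differs as well is not stated in the labels. Animals are not named, so segments of 1 slide may come from the same animal, and every p-value below, which treats segments as replicates, is too small for a statement about animals. A segment is a bulk sample: fewer cells of a type and less RNA per cell cannot be told apart in it.

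Ribosomal proteins build the small subunit, which reads the messenger RNA, and the large subunit, which joins amino acids. The stalk proteins sit on the large subunit and recruit the elongation factors. Transcripts of these genes are among the most abundant of most mammalian cells, and they typically begin with a 5′ terminal oligopyrimidine tract, a C followed by a run of C and T, through which their translation is controlled by growth signals.

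RefSeq start windows (GRCm38.p6) matched 65 of the 83 members, 10 of them with several annotated starts. The windows shown are those of 6 members that the comparisons below turn on, each from 20 bases before the annotated start to the tenth base from it, so 30 bases, with the longest run of C and T in capitals. They show where runs of C and T lie around the annotated start. In Rpl4, Rps25 and Rps7 the marked run lies wholly before that start, in Rplp2 and Rps10 it spans it, and in Rps23 it lies after it.
Rplp2: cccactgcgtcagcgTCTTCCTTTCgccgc
Rpl4: agTCTTTCCTTTTCCTgtgggagcagccgg
Rps25: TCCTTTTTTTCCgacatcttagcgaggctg
Rps10: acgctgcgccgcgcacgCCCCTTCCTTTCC
Rps7: gaagagCTTCCggtttccacccacctactt
Rps23: acggggccttcggctgggcggggCTTCCCg
They lie at chr7:141447631-141447660 (plus strand), chr9:64173367-64173396 (plus), chr9:44407694-44407723 (plus), chr17:27635235-27635264 (minus), chr12:28635944-28635973 (minus) and chr13:90923102-90923131 (plus), in that order. A run of at least 8 bases, each C or T, was present on the gene strand in 29 of the 65 members (44.6%) and in 3927 of 27025 genes with a window (14.5%). On the other strand the shares were 6.15% and 15.1%. Rplp2, Rpl4, Rps25 and Rps10 hold such a run and Rps7 and Rps23 do not, which says only that these letters are not in this window.

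Depth, the sum of all counts above the floor of 1, ran from 917 to 228562 per segment with a median of 11428. It differed by class: the median was 81873 in acute stroma, 26879 in naive interface, 16265 in naive stroma, 7124 within the naive tumour, 6242 in relapse stroma and 5565 in relapse interface. Plate G held the whole naive slide and plate H the whole relapse slide. The label was checked against 15 neutrophil markers. S100a8 and S100a9 passed the detection limit in 44 and 38 of 89 segments, but the other 13 passed it in at most 8 and Ltf in 0. Summed over the list, the markers stood at 1.11 times the average panel target, against 11.4 times for 10 fibroblast markers and 4.96 times for 10 macrophage markers. The value was 10.1 for 7 B and plasma cell markers, 3.42 for 13 keratinocyte and 2.21 for 8 muscle markers. It was 1.18 for 5 endothelial and 0.854 for 6 T cell markers. The segments are therefore called by their location and stage here, and not as neutrophils.

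Ribosomal protein targets were detected far more often than the average target. A member passed the detection limit (the negative-probe level times the square of its geometric SD, and at least 2 counts) in a median of 45 of 89 segments, against 5 over all targets. All 83 passed it in at least 1 segment, and 80 (96.4%) in enough segments to be tested, against 25.5% of all targets; Rpl7l1, Rpl8 and Rpl10l were not tested. Small-subunit members passed the limit in 58.1% of their values, large-subunit members in 55.9%, stalk members in 41.2%, and paralogs in 18.3%. The members detected most often were Rpl21 (86 segments), Rpl35a, Rps2 and Rpl17 (85 each), Rpl41 (83) and Rpl29 (82), followed by Rpl23a, Rpl31, Rps27a and Rps24. At the other end stood Rpl7l1 (8 segments), Rpl8 (6) and Rpl10l (2). Each target is read by its own probe, so these ranks describe detection and not transcript level. RefSeq symbols made of a member's name and -ps, with or without a number after it, name 294 pseudogene copies of the 73 subunit and stalk members. The 20 most often detected had a median of 5.5 such copies and the other 53 a median of 2. Counts of these members are uncertain to the extent that a probe binds a copy.

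The members held a median of 2.29% of a segment's depth (1.17 to 5.29% over the 89 segments), where 83 targets of average count would hold 0.416%. In naive segments the mean share was 2.02% ± 0.52 (SD, n = 15) in stroma, 1.70% ± 0.46 (n = 13) at the interface and 2.35% ± 0.94 (n = 14) within the tumour. In acute segments it was 1.94% ± 0.90 (n = 9) in stroma, with the 2 interface segments at 1.34% (exact 95% binomial interval 1.26 to 1.43%) and 1.753% (1.65 to 1.86%), intervals that cover counting error only. In relapse segments it was 2.87% ± 0.80 (n = 14) in stroma and 3.41% ± 1.01 (n = 22) at the interface. The ranges of the naive and acute classes overlapped, and the means of both relapse classes were above those of the other 5. Segments were also sorted into groups of neighbours by their position on the slide. In both naive groups that hold stroma and interface, the interface share was the higher (2.81%, n = 1, against 1.96%, n = 3, and 1.51%, n = 8, against 1.19%, n = 2). The interface also had the lower mean depth there (9552 against 88543, and 33095 against 44254), and its part was not tested. The other 10 naive stroma segments, with group means of 2.14% and 2.32%, lay in groups without interface segments, so the lower interface mean did not hold within groups.

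**Figure D1:**
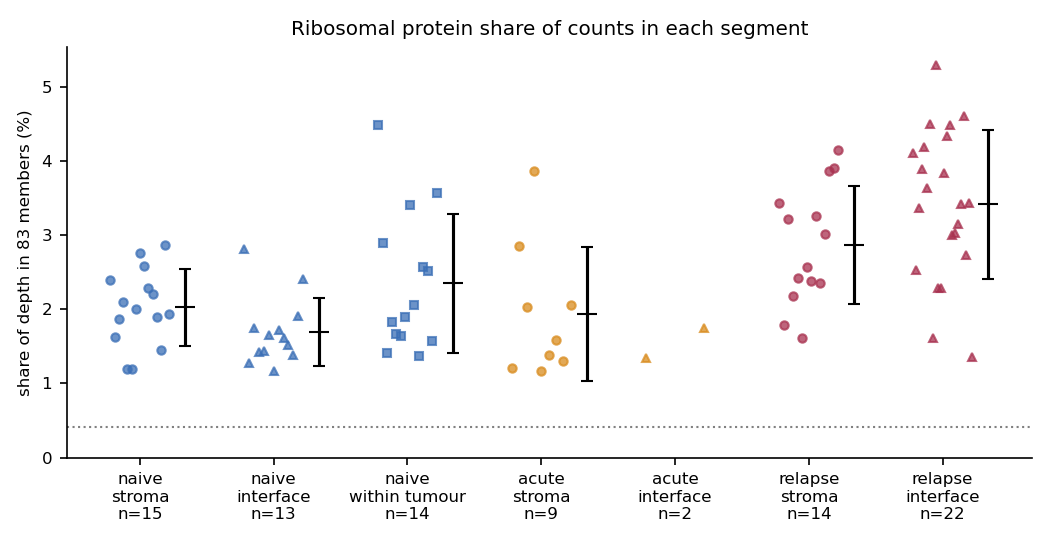
Share of a segment's depth held by the 83 members (%), 1 point per segment, by class; crosses with bars give the mean ± SD of classes with over 2 segments, and the dotted line the share of 83 average targets, 0.416%. All 89 segments lie above the line, and 16 of 22 relapse interface segments lie above all 13 naive interface segments.

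The clearest separation was at the interface. The share in naive interface segments had its lowest value at 1.17%, its median at 1.62% and its highest at 2.81%. In relapse interface segments these were 1.35%, 3.43% and 5.29%. The relapse mean was 2.01 times the naive mean, and 16 of 22 relapse segments stood above every naive one, with 6 in the overlap. In stroma the relapse mean was 1.42 times the naive mean, with 7 of 14 relapse segments above all 15 naive ones. No p-value is given for the share, since it sums over chosen members.

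Depth moved with the share. The share was lower at greater depth: over log2 values Pearson's r was -0.81 in naive (n = 42; Spearman's rho -0.82), -0.72 in acute (n = 11; rho -0.42) and -0.59 in relapse (n = 36; rho -0.62). Without the 2 segments farthest from the median depth, r was -0.78, 0.01 and -0.76, so the acute value rested on those 2. Depth is the denominator of the share, so the points share that quantity, and targets at the floor add nothing to it. Among segments with a depth of 5000 to 20000, the relapse interface share was 2.99% ± 0.59 (n = 10) and the naive interface share 2.14% ± 0.56 (n = 4). The stroma shares there were 2.66% ± 0.73 (n = 9) in relapse and 2.34% ± 0.35 (n = 8) in naive, and the share within the naive tumour 1.99% ± 0.43 (n = 7). The order of naive classes thus changed in that band, with the within-tumour share lowest, and the relapse interface stayed highest. Acute stroma differed by plate, at 2.49% ± 1.13 on plate G (n = 4, mean depth 29854) and 1.501% ± 0.35 on plate H (n = 5, mean depth 127145); the part of plate or depth in this was not tested.

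Member counts were higher in segments with more nuclei. Over log2 values r was 0.74 in naive (rho 0.73), 0.83 in acute (rho 0.75) and 0.35 in relapse (rho 0.53), over the same segments; without the 2 farthest it was 0.70, 0.78 and 0.37. The share itself correlated with nuclei at r = -0.70 in naive, -0.12 in acute and -0.40 in relapse segments. After log2 depth was taken out of both, the correlation of member counts with nuclei was -0.19 in naive, 0.82 in acute and -0.17 in relapse. Per nucleus, the members gave 16.2 ± 6.98 counts in acute stroma (SD, n = 9) and 17.4 and 30.2 in the acute interface segments. Naive stroma gave 7.99 ± 5.06, naive interface 5.79 ± 2.06 and the naive tumour 3.77 ± 1.99. Relapse stroma gave 4.42 ± 2.11 and relapse interface 3.47 ± 1.47. The lowest mean per nucleus was thus that of the relapse interface, the class with the highest share, followed by the naive tumour. Depth per nucleus was also lowest at the relapse interface, with a mean of 116. It was 164 in relapse stroma, 172 within the naive tumour, 358 at the naive interface, 446 in naive stroma and 1071 in acute stroma. Member counts per nucleus thus went with the counts of all targets per nucleus, and are not a measure of ribosomal transcripts per cell.

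**Figure D2:**
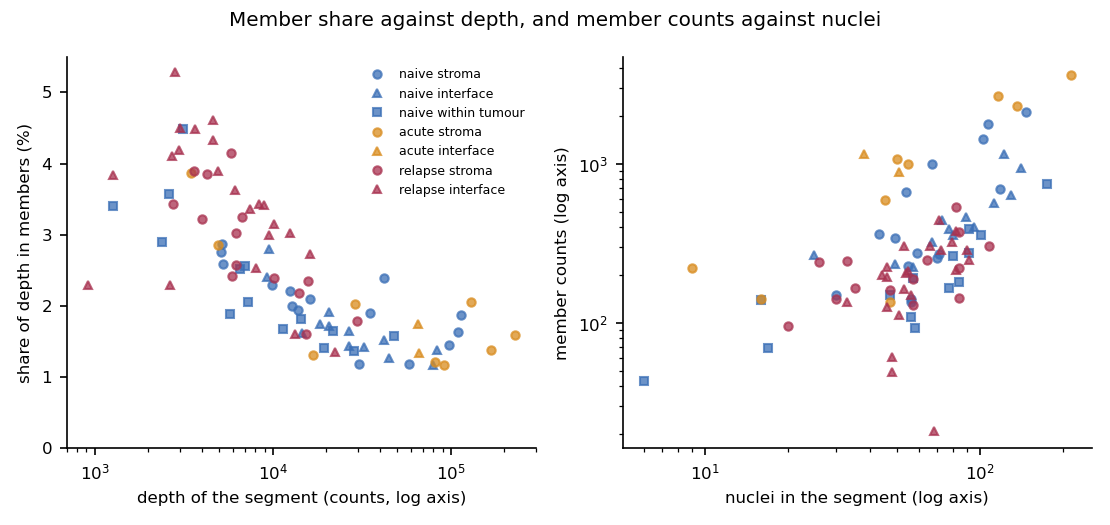
Left, share of depth in the members (%) against the depth of each of 89 segments (log axis); right, member counts against nuclei (both axes log); colour gives the slide and shape the location. The share is lower at greater depth on the naive (r = -0.81) and relapse (r = -0.59) slides, the acute r of -0.72 rests on 2 segments, and acute stroma has on average the most member counts per nucleus of the classes with over 2 segments.

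Keratinocyte markers moved with the share. The 13 markers (all on the panel, 10 tested, each above the detection limit in at least 1 segment) summed to 0.13% of depth at the naive interface (0.06 to 0.55%), 0.16% in naive stroma (0.05 to 0.51%) and 0.54% within the naive tumour (0.07 to 2.14%). They summed to 0.56% in relapse stroma (0.17 to 0.99%) and 1.12% at the relapse interface (0.24 to 2.70%). In acute stroma the sum was 0.15% (0.06 to 0.23%). Their share correlated with the member share at r = 0.69 in naive, 0.63 in acute and 0.70 in relapse (n = 42, 11 and 36, rho 0.50, 0.51 and 0.73). These are 2 shares of 1 denominator, and the markers' part was not tested. For fibroblast markers r was 0.24, 0.55 and 0.26 (rho 0.35, 0.92 and 0.50), and for macrophage markers 0.42, 0.43 and 0.02. Endothelial markers had -0.22, 0.68 and -0.24, neutrophil markers -0.08, -0.56 and 0.13. T cell markers had -0.32, -0.78 and 0.01, B and plasma cell markers -0.05, -0.11 and 0.02, muscle markers -0.22, -0.44 and -0.05. Other lists differed in how they went with the share: for 33 elongation and initiation factors r was 0.56, 0.74 and 0.53. For 23 ribosome biogenesis genes r was -0.31, -0.79 and 0.16. For the 78 mitochondrial ribosomal proteins, which make up a separate ribosome, r was -0.10, -0.74 and 0.09, and their mean share lay between 0.34% and 0.43% of depth in every class. The acute values of all these lists come from 11 segments, in which the correlation of the share with depth rested on 2.

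Differences of single members were tested on log2(signal + 1) with limma across 7 classes and all 5087 testable targets, with Benjamini-Hochberg adjustment. On this scale 1 count is worth 3.74 in the segments of lowest normalisation factor and 0.288 in those of the highest, so the floor itself differs between segments. Levels below are this signal. Segments stand in for replicates in every limma p-value that follows, and since segments of 1 slide may share an animal, these p-values are too small.

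At the naive interface 10 of 80 members were lower than in stroma and 0 higher, with 10.5% of all tested targets lower (11.1% called in either direction). The share of members called was near that background, so the values that follow describe single genes and not a change particular to ribosomal proteins. The median member difference was -0.27 and that of all targets -0.15. Small-subunit members gave 4 of the calls (Rps7, Rps23, Rps25, Rps21; median of 30 members -0.48), large-subunit members 3 (Rpl23, Rpl4, Rpl22; median of 39 members -0.05), the stalk 2 (Rplp1, Rplp2) and paralogs 1 (Rpl36al).

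Rplp1, the stalk protein that pairs with Rplp2, had the largest fall. Its signal in naive stroma was 3.74 at the lowest, 13.1 at the median and 28.7 at the highest, and at the interface 1.87, 3.74 and 18.7. The floor differs between these classes, here and for the members that follow. In 7 of 15 naive stroma and 2 of 13 naive interface segments, 1 count reads as 3.74. Rplp1 was at the floor of 1 count in 3 stroma and 5 interface segments. The part of the floor in the lower calls was not tested. The ranges overlap, but 11 of 15 stroma segments passed the detection limit against 5 of 13 at the interface. The log2 difference was -1.16 (SE 0.29, limma adjusted p = 0.00265). Rplp2 ran from 3.74 over 7.48 to 18.7 in stroma and from 1.25 over 3.74 to 11.2 at the interface, and its difference was -0.98 (SE 0.25, limma adjusted p = 0.00325). Rplp0, which anchors the Rplp1 and Rplp2 dimers, differed by -0.52 (SE 0.27) and did not pass the test (limma adjusted p = 0.218).

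The small-subunit proteins that fell most were Rps7, Rps23, which lies at the decoding centre, and Rps25. Rps7 had a lowest, median and highest signal of 3.74, 6.86 and 14.96 in stroma and 1.25, 3.74 and 7.48 at the interface (log2 difference -1.13, SE 0.25, limma adjusted p = 0.000577). Rps23 had 3.74, 11.2 and 26.2 in stroma and 1.87, 3.74 and 9.35 at the interface (-1.11, SE 0.26, limma adjusted p = 0.00139). For Rps23, 13 of 15 stroma segments passed the limit and 4 of 13 interface segments, with the upper stroma values above all of the interface. Rps25 had 0.94, 7.48 and 14.96 in stroma and 1.25, 1.87 and 9.35 at the interface (-1.09, SE 0.22, limma adjusted p = 0.000104). Its counts were small: the median was 2 in stroma and 1, the floor, at the interface, where 10 of 13 segments were at the floor. The other calls had log2 differences of -0.94 (Rps21), -0.83 (Rpl23, named after its values were seen), -0.79 (Rpl4), -0.65 (Rpl22) and -0.62 (Rpl36al), with limma adjusted p between 0.0161 and 0.049. On counts scaled to the same total, thinned to 1 depth or per 10000 with the floor at 0, 0 of the 10 were called. Of all 5087 targets these settings called only 71, 1 and 26, beside 563 in the main fit, so the loss was not particular to members. With groups of neighbouring segments as a random block 5 were called (Rplp1, Rplp2, Rps7, Rps23, Rps25), and 2 without the naive group of neighbouring segments that holds 8 of the 13 interface segments. Over all targets the calls there were 341 and 58.

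**Figure D3:**
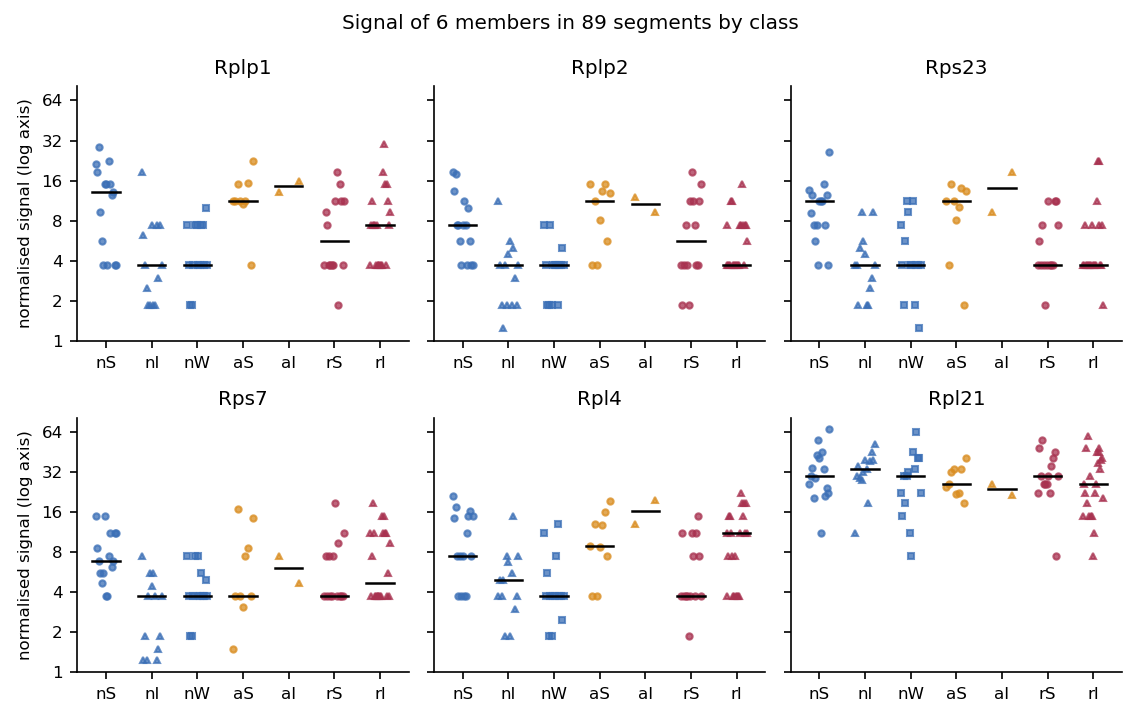
Normalised signal (log axis) of 6 members in each of 89 segments, with the median of each class as a line; nS, nI and nW are naive stroma, interface and within tumour, aS and aI acute, rS and rI relapse stroma and interface. Rplp1, Rplp2, Rps23, Rps7 and Rpl4 have a higher median in naive stroma than in the other naive classes, with overlapping ranges, while Rpl21 lies at a median of 29.9, 33.7 and 29.9 in the 3 naive classes.

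The members detected most often gave no call. Rpl21 had a median signal of 29.9 in naive stroma and 33.7 at the interface and differed by 0.02 (SE 0.32, limma adjusted p = 0.975). Rpl35a differed by -0.04, Rpl17 by 0.10, Rpl41 by 0.21 and Rps2 by 0.25, with standard errors between 0.32 and 0.33 and no call. Rpl29 differed by 0.69 (SE 0.33, limma adjusted p = 0.175). The largest positive difference among members was that of Rpl7a, a large-subunit protein named here after its values were seen, at 0.70 with no call.

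Within the naive tumour 7 members were lower than in stroma and 0 higher, with 3.44% of all tested targets lower (3.66% in either direction). The median member difference was -0.39 and the median of all targets -0.01. All 30 small-subunit members had a negative difference, and 32 of 39 large-subunit members, beside 2667 of 5087 tested targets. Members share segments, so these signs are not independent, and the sign of their median changed with the scale, as given below. Both naive comparisons use the same stroma segments, and 5 members were called in both (Rplp1, Rplp2, Rps21, Rps23, Rpl4). Rps21, a small-subunit protein, had a lowest, median and highest signal of 7.48, 14.96 and 29.9 in stroma and 3.74, 5.61 and 14.96 within the tumour (log2 difference -1.04, SE 0.28, limma adjusted p = 0.0137). It passed the limit in 13 of 15 stroma and 8 of 14 tumour segments, and the ranges overlapped.

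Rplp1 fell by 0.995 on the log2 scale, Rps23 by 0.95, Rplp2 by 0.90 and Rpl4 by 0.90, with limma adjusted p between 0.0124 and 0.0383. Depth differed between these classes (median 7124 within the tumour), and with log2 depth as a covariate 3 of the members were called instead of 7. Counts scaled to the same total moved the median of all targets from -0.01 to 0.53 and that of the members from -0.39 to 0.33, so the members' median stayed below that of all targets while its sign changed. On that scale 9 of 80 members and 1945 of 5087 targets were called higher within the tumour, and 0 members lower. Thinned to 1 depth, per 10000, or without the naive group with 3 tumour and 3 stroma segments (mean depth 2255 and 88543), 0 were called.

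Fibroblast and macrophage markers were lower in the same 2 comparisons. At the naive interface all 10 fibroblast markers and 9 of 10 macrophage markers were called lower than in stroma, and within the tumour 9 and 7 of 10. The fibroblast list summed to 1.39% of depth in naive stroma (0.14 to 2.56%), 0.31% at the interface (0.07 to 2.37%) and 0.12% within the tumour (0 to 0.34%). The macrophage list summed to 0.56% (0.04 to 1.06%), 0.15% (0.03 to 1.34%) and 0.44% (0 to 5.15%). Each marker of both lists passed the detection limit in at least 1 segment, and the part of these cell types in the member differences was not tested.

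The naive tumour against its interface gave no member call by limma (0 of 80 called; 0.059% of all targets, 0.0393% higher and 0.0197% lower; 6 members at an unadjusted p under 0.05). In relapse, interface and stroma gave 0 calls of members by limma, as of all targets (0%), with 3 members at an unadjusted p under 0.05 and a median member difference of 0.05. There Rplp1 differed by 0.13 (SE 0.26) and Rps23 by less than 0.01 (SE 0.24). Between stages, stroma gave 0 member calls in each of 3 limma comparisons that share segments: acute minus naive (0.0197% of all targets called, 4 members at an unadjusted p under 0.05), relapse minus naive (1.4%, 11 members) and relapse minus acute (1.53%, 0.649% lower and 0.885% higher, 8 members). The median member differences were -0.05, -0.18 and -0.10.

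**Figure D4:**
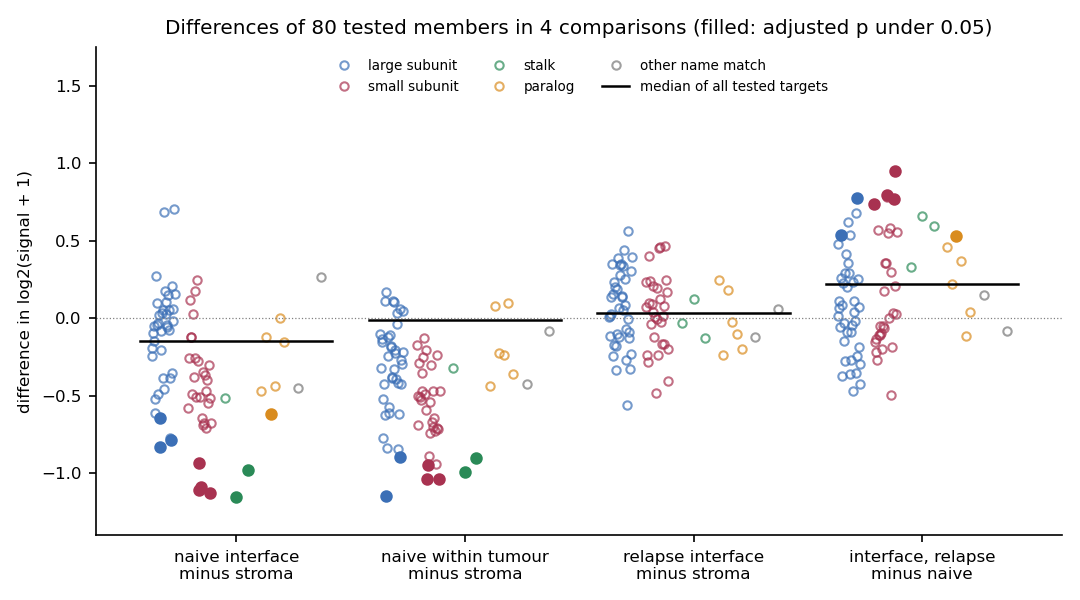
Difference in log2(signal + 1) of the 80 tested members in 4 comparisons, by role; filled points passed a limma adjusted p of 0.05, and the line is the median of all 5087 tested targets. The calls are 10 and 7 lower members in the naive comparisons with stroma, 0 in relapse, and 7 higher members at the relapse against the naive interface.

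At the interface, 7 members were higher in relapse than in naive segments and 0 lower, with 9.36% of all tested targets higher (9.77% in either direction). The share of members called was near that background. The median member difference, 0.08, was below that of all targets, 0.22. Small-subunit members gave 4 of the calls, among them Rps7, Rps25 and Rps10; the others were Rpl4 and Rpl14 of the large subunit (Rpl14 named after its values were seen), and Rpl36al. Rps7 rose from a lowest, median and highest signal of 1.25, 3.74 and 7.48 in naive to 3.74, 4.67 and 18.7 in relapse segments, a log2 difference of 0.95 (SE 0.23, limma adjusted p = 0.00522). Rpl4, which lines the exit tunnel of the large subunit, rose from 1.87, 4.99 and 14.96 to 3.74, 11.2 and 22.4, a difference of 0.77 (SE 0.26, limma adjusted p = 0.0396). Rps10 rose from 1.87, 3.74 and 6.73 to 3.74, 7.48 and 22.4 (0.74, SE 0.24, limma adjusted p = 0.0325). Rps25 had 1.25, 1.87 and 9.35 in naive and 3.74, 3.74 and 11.2 in relapse segments, a difference of 0.80 (SE 0.20, limma adjusted p = 0.00661). For these 4 the ranges of the classes overlapped, and the lowest relapse value, 3.74, was the signal of 1 count in the segments of lowest normalisation factor.

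Markers of other cells were higher in the same comparison, with 7 of 10 keratinocyte and 3 of 4 B and plasma cell markers called, and their part was not tested. The member calls sit close to the floor. The median count of Rps25 was 1 in both classes, with 10 of 13 naive and 15 of 22 relapse segments at the floor, and so was that of Rpl36al (7 of 13 and 16 of 22). A count of 1 reads as 3.74 in 20 of 22 relapse interface segments and in 2 of 13 naive interface segments. With plate as a covariate (its effect estimated from acute stroma, the class on both plates), with groups of neighbouring segments as a random block, or on counts per 10000 with the floor at 0, 0 of the 7 remained called. Without 1 of the naive groups (8 of the 13 interface segments) or 1 of the relapse groups (14 of 22) the count was also 0. On counts scaled to the same total, which moved the median of all targets from 0.22 to 0.91, 79 of 80 members and 4999 of 5087 targets were called higher.

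Whether the step from stroma to interface differed between relapse and naive was tested as an interaction, and 6 members passed, all toward a higher interface in relapse (4.19% of all targets in either direction and 4.07% in this one). Among them the differences were 1.35 for Rpl4 (SE 0.38), 1.30 for Rps7 (SE 0.34), 1.28 for Rplp1 (SE 0.39), 1.10 for Rps23 (SE 0.35) and 0.80 for Rpl36al (SE 0.25), with limma adjusted p from 0.012 to 0.0492. The median over the 80 members was 0.30 and over all targets 0.19. The 8 fibroblast, 3 macrophage and 2 keratinocyte markers called in this test were all higher too, and their part was not tested. Leaving out 1 naive or either of 2 relapse groups of neighbouring segments ended all 6 calls. With these groups as a random block 2 of the 6 were called, on the same total 1, with no filter 1, with plate as a covariate 5, and 0 thinned to 1 depth or per 10000. Rps23 was at -0.14 after thinning.

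Read as a rate per 10000 counts of depth, pooled over the segments of a class, the members differed more evenly between the interface classes. All 73 subunit and stalk members had a higher pooled rate at the relapse than at the naive interface, by a median of 2.05 times (1.06 to 5.19 times), while 6 of the 10 paralogs and other matches did, with a median of 1.21 times. Among segments of a depth of 5000 to 20000, 64 of the 73 were higher, by a median of 1.41 times (10 relapse and 4 naive segments). Rpl29 went from 5.93 to 9.53 per 10000, Rps2 from 6.18 to 12.3, Rpl21 from 7.18 to 11.9, Rplp1 from 0.88 to 2.99 and Rps7 from 0.46 to 2.41. In stroma 53 of the 73 had a higher rate in relapse than in naive segments (median 1.26 times), and 42 of 73 in the depth band (1.03 times). These rates carry no test, and they were not computed over all targets. On counts scaled to the same total, 4999 of 5087 targets were called higher at the relapse interface. Of all values, 87.3% were at the floor at the relapse interface and 54.4% at the naive interface, and such values add nothing to depth. The count of 73 is therefore not read as a change particular to ribosomal proteins.

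The rates also differed by member between the naive classes. From naive stroma to interface 51 of the 73 had a lower rate, by a median ratio of 0.80 over all 73. These rates carry no test and were not computed over all targets, so the count is not read as particular to ribosomal proteins. Pooling also mixes groups of neighbouring segments: in both naive groups that hold stroma and interface, the interface share was the higher. Rps25 went from 1.39 to 0.21 per 10000, Rplp2 from 1.90 to 0.58, Rplp1 from 2.81 to 0.88 and Rps7 from 1.42 to 0.46. Against these, Rpl29 went from 3.61 to 5.93, Rps2 from 4.61 to 6.18 and Rpl17 from 5.43 to 6.79. Among segments of a depth of 5000 to 20000 (4 interface, 8 stroma), 44 of the 73 had a lower rate at the interface (median ratio 0.89), and there Rps2 and Rpl17 were lower as well. The ratio of large-subunit and stalk counts to small-subunit counts was 1.36 ± 0.21 in naive stroma (SD, n = 15) and 1.745 ± 0.17 at the naive interface (n = 13). It was 1.70 ± 0.41 within the naive tumour and 1.40 ± 0.23 in acute stroma, 1.57 ± 0.32 in relapse stroma and 1.63 ± 0.29 at the relapse interface. The 6 most often detected members, 5 of them of the large subunit, made up 17.2% of pooled member counts in naive stroma, 24.98% at the interface and 25.8% within the tumour. In acute stroma they made up 16.4%, in relapse stroma 23.6% and at the relapse interface 21.7%. Naive and acute stroma thus had the lowest values of these 6 classes. The remaining class, acute interface (n = 2), was lower still, with a mean ratio of 1.27 and 15.2% of pooled member counts. Low values were therefore not particular to stroma. Across classes the order of the 83 pooled rates correlated at a Spearman's rho between 0.67 and 0.93, a description over probes that the classes share.

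The paralogs were detected less often than most of their parents, Rpl22 being the exception. Rpl3, which is found in ribosomes of all tissues, passed the limit in 67 segments and Rpl3l, its striated-muscle paralog, in 26. Rpl3l had its highest counts, 38 and 21, in 2 acute stroma segments of depth 228562 and 168828, where the muscle actin Acta1 had 27 and 172 counts and Rpl3 had 54 and 30. Its rates there were only 1.66 and 1.24 per 10000. The highest rate of Rpl3l, 6.95, came from 4 counts in a naive tumour segment with Acta1 at 1 count. An acute stroma segment with 26 counts of Acta1 had Rpl3l at the floor. The next highest counts of Rpl3l, 12 and 11, came with 90 and 61 counts of Acta1 at depths of 98117 and 91360. A segment of depth 81873 had 10 counts of Rpl3l and 1 of Acta1. High counts of Rpl3l thus came from deep segments, most of the highest also with high Acta1, and the part of either was not tested. The pooled rate of Rpl3l was 0.79 per 10000 in naive stroma, 1.19 in acute stroma and 0.64 at the relapse interface. Rps27 and Rps27l passed the limit in 45 and 27 segments, Rpl22 and Rpl22l1 in 24 and 27, Rpl36a and Rpl36al in 19 and 13, and Rpl10 and Rpl10l in 66 and 2. Rpl7 passed it in 25 segments and Rpl7l1 in 8. Rpl39l passed it in 14 and Rpl32l in 13, and the panel held no target under the names of their parents, Rpl39 and Rpl32. Of the 6 tested paralogs Rpl36al alone was called, lower at the naive interface than in stroma (-0.62, SE 0.19, limma adjusted p = 0.0161) and higher at the relapse interface (0.53, SE 0.17, limma adjusted p = 0.0337), from median counts of 2, 1 and 1 in naive stroma, naive interface and relapse interface.

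Other genes of translation were called in the same comparisons. At the naive interface 1 of 4 ribosomal proteins outside the name rule, Fau, which is made as a fusion and yields a small-subunit protein, fell by 1.02 on the log2 scale (SE 0.28, limma adjusted p = 0.0071). Of 21 tested elongation and initiation factors 4 fell there, beside 10.5% of all targets, with Eef2, the factor that moves the ribosome along and docks at the stalk, by 1.27 (SE 0.28, limma adjusted p = 0.000635), and Eif4e, Pabpc1 and Eif4a2 by 0.86, 0.88 and 0.80. Of 12 ribosome biogenesis genes Npm1, a nucleolar chaperone, fell by 0.66 (limma adjusted p = 0.0487). Within the tumour Eef2 fell by 1.28, Eif4a2 by 0.85 and Fau by 1.12. At the relapse against the naive interface 6 of 21 factors were higher, beside 9.36% of all targets (Eef2, Eif3f, Eif3h, Eif3k, Eif4e, Eif5a; Eef2 by 1.19, SE 0.26, limma adjusted p = 0.0017), as were 3 of 12 ribosome biogenesis genes. These 3 were Npm1 (1.07), Gnl3 (0.75) and Myc, a regulator of ribosome production (0.62). Of 31 mitochondrial ribosomal proteins 3 were called higher there, a share near that of all targets, and 1 lower at the naive interface. The medians of the factor list were -0.25 at the naive interface and 0.42 at the relapse against the naive interface, beside -0.15 and 0.22 over all targets.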

How the data were processed

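The members and gene lists were chosen with earlier results of these data known. The deposited matrix gives normalised signal, and the deposited annotation lists the factor behind it for each segment, a ratio, per the file headers; signal times factor returned whole counts for 99.986% of values, within 1e-06. The deposited negative-probe signal set the detection limit. The annotation also gives nuclei, area and position. Seurat and mm10 are named in the submitters' processing notes; aligner and counting steps are not given in the sources used here. The lowest count is 1, which 69.1% of values had; the negative-probe row was left out. The 5087 targets that passed the limit in 10% of segments or more were tested on log2(signal + 1) with limma 3.58.1 (lmFit, eBayes with trend, two-sided, 1 mean per class over all 89 segments, adjusted p under 0.05). On data simulated for the naive tumour against stroma, the fit kept the sign of every called change but found few of the simulated decreases, so a member without a lower call may still be lower. Segments were assigned to 14 groups of neighbouring segments by position (distance under 7000), chosen after seeing the data, as were the plate, per-10000 and depth-band settings. Named members were the 10 most often detected, up to 5 called each way per comparison, the stalk, and paralogs with their parents; some members that the rule selects are not reported here by name and stay in the counts. Sequences are from RefSeq.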

Additional observations from a re-analysis of the deposited data

Results flagged for a closer look

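For 6 members the difference between interface and stroma was itself different on the relapse and naive slides, by a test of the interaction in limma with Benjamini-Hochberg adjustment over 5087 targets. Among them the interaction was 1.35 for Rpl4, 1.30 for Rps7, 1.28 for Rplp1, 1.10 for Rps23 and 0.80 for Rpl36al, in units of log2(signal + 1). Each is the relapse step minus the naive step, so a positive value marks a member whose interface signal stood higher against its stroma in relapse than in naive tissue. Of the 6 calls 5 remained with plate as a covariate, 2 with groups of neighbouring segments as a random block, 1 on counts scaled to the same total, 1 with no filter, and 0 thinned or per 10000 with the floor at 0. Slide and stage cannot be told apart here. No acute stroma segment stood apart from the other 8 in member share, member counts per nucleus or large-to-small ratio by Dixon's test.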

How the results depend on the processing

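The counts of called members differed between settings, and the cause was not tested; the setting with the floor at 0 also changes the scaling. For the naive interface against stroma (10 members), 0 were called on counts scaled to the same total, 6 with no filter, 5 with groups of neighbouring segments as a random block, 0 thinned to 2000 counts (86 segments) and 0 per 10000 with the floor at 0. Of all 5087 targets the same total called 71, thinning 1 and the setting per 10000 26, beside 563 in the main fit. For the naive tumour against stroma (7), 3 were called with log2 depth, 3 with no filter, 0 thinned and 0 per 10000. Against the interface, the naive tumour gave 39 of 80 members on the same total, beside 4296 of 5087 targets. For the relapse against the naive interface (7), 79 were called on the same total (4999 of 5087 targets), 18 of 83 with no filter (11432 of 19962 targets), 3 with a pseudocount of 4, and 0 each with the block, thinned, with plate and per 10000. For the interaction (6), 1 was called on the same total, 1 with no filter, 2 with the block, 0 thinned and 0 per 10000. In stroma, relapse against naive gave 3 on the same total, and relapse against acute 1 with log2 depth and 2 on the same total. The sign turned for Rps23 at the naive interface (0.083 thinned), Rps23 within the naive tumour (0.0060 thinned), Rpl4 and Rps10 at the relapse against the naive interface (-0.037 and -0.11 with plate) and Rps23 in the interaction (-0.14 thinned).

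Without 1 group of neighbouring segments at a time the counts were 2 to 11, 0 to 8, 0 to 13 and 0 to 7 for the naive interface, the naive tumour, the relapse against the naive interface and the interaction, and 0 for the other comparisons. Leaving out naive group 4 (8 of the 13 interface segments) gave 2 and 2 in the naive comparisons and 0 for both the interface difference and the interaction. Leaving out naive group 1 gave 0 within the naive tumour, 13 at the interface and 2 in the interaction, and naive group 3 gave 3 within the tumour and 3 in the interaction. Leaving out relapse group 1 gave 0 and 0, and relapse group 3 gave 4 and 0, for the interface difference and the interaction, and relapse group 4 gave 3 in the interaction. The mean shares were then 1.92 to 2.15% in naive stroma, 1.61 to 2.01% in naive interface, 2.01 to 3.002% in the naive tumour, 1.33 to 2.20% in acute stroma, 1.34 to 1.753% in acute interface, 2.65 to 2.96% in relapse stroma and 3.26 to 3.498% in relapse interface. Thinning gave 2.80, 2.68, 3.82, 2.69, 3.86 and 4.74% in naive stroma, naive interface, acute stroma, acute interface, relapse stroma and relapse interface. Within the naive tumour it gave 3.19% (n = 13). The order of classes thus changed, with acute stroma above the naive classes and near relapse stroma. Subtracting the negative-probe level gave 2.58% in naive stroma, 2.17% in naive interface and 2.42% in acute interface, where count minus 1 gave 1.86%.

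The planned count test was not run, since the deposited values are normalised signal, and the planned block by annotated tissue piece was replaced by groups from coordinates. No paired analysis was possible because replicate numbers only name segments; the groups of neighbouring segments, several of which hold more than 1 class, were fitted as a random block instead. Depth limits single members: 40.3% of member values at the relapse interface and 37.9% in relapse stroma were at the floor of 1 count.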

Other observations

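Rps19bp1 and Rps23rg1, which match the name rule but do not encode a ribosomal protein, passed the detection limit in 18 and 39 of 89 segments. They were called in 0 of 9 comparisons by limma, with Rps19bp1 at an unadjusted p under 0.05 in 2 of them. Their pooled rates were 0.674 and 1.65 per 10000 at the naive interface and 0.445 and 2.35 at the relapse interface. By RefSeq the 83 members lie on 18 chromosomes, with at most 14 on 1 of them, chromosome 7.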
